A study of Arabidopsis thaliana with 3 samples.

Results

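RNA of whole Arabidopsis thaliana seedlings was compared between T34 and T12, a pair of gip1 gip2 mutant populations, to ask which genes separate the population with the more severe root phenotype (T34, as the order of the design text is read here) from the milder one. The comparison used 6 of the 9 libraries of the study, 3 of T34 and 3 of T12, and all 30271 genes of the deposited tables. The test covered 20328 genes, those that reached 10 normalized counts in 3 or more of the 6 libraries. Both populations descend from a cross of the gip1 line GABI_213D01 with the gip2 line FLAG_36406, so every library in the test comes from mutants. The crossed lines are of different accessions, so T12 and T34 may carry different parental segments. Here such segments cannot be told apart from severity. Seedlings were 9 days old, and the labels name no treatment. The wild type of the study, a Ws x Col-0 cross, stayed outside the test, and its values appear only as side values. The labels call the replicates individual ones and say no more, so p-values reflect only how far these libraries spread, which may be technical. In the labels the seventh library appears both for WT and for T34, and no group lists the sixth. The sixth was taken as T34 replicate 3 because it stands in the table of T34.

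The GIP proteins are small parts of gamma-tubulin complexes, which start new microtubules at the nuclear envelope and in the cell cortex of plants. Loss of GIP1 and GIP2 together is known to disturb spindles, nuclear shape and chromosome segregation, and plants grow poorly. In a young seedling, genes of photosynthesis are strongly expressed in leaf cells, while the storage reserves of the seed are normally used up after germination and their genes shut off.

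GIP2 itself gave no check of the labels. Each T12 library held 1 read of it, and the T34 libraries held 2, 3 and 5, below the filter. GIP1 is not analysed here.

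The libraries held 20963358 to 28016449 reads in all. Ribosomal RNA took 1.16% ± 0.471 of the reads in T12 and 46.9% ± 2.27 in T34 (SD, n = 3). This left 13136420 to 15286745 reads of other nuclear genes in T12 libraries and 10069099 to 11341039 in T34 libraries. The amount of ribosomal RNA left thus moves with the groups compared, and its part in the results was not tested. Other scalings of nuclear genes moved the log2 difference between the groups by -0.016 to -0.007. Pearson's r of log2 values across genes, which are not independent replicates, was 0.968 to 0.985 between T12 libraries, 0.979 to 0.988 between T34 libraries and 0.943 to 0.967 between groups.

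**Figure D1:**
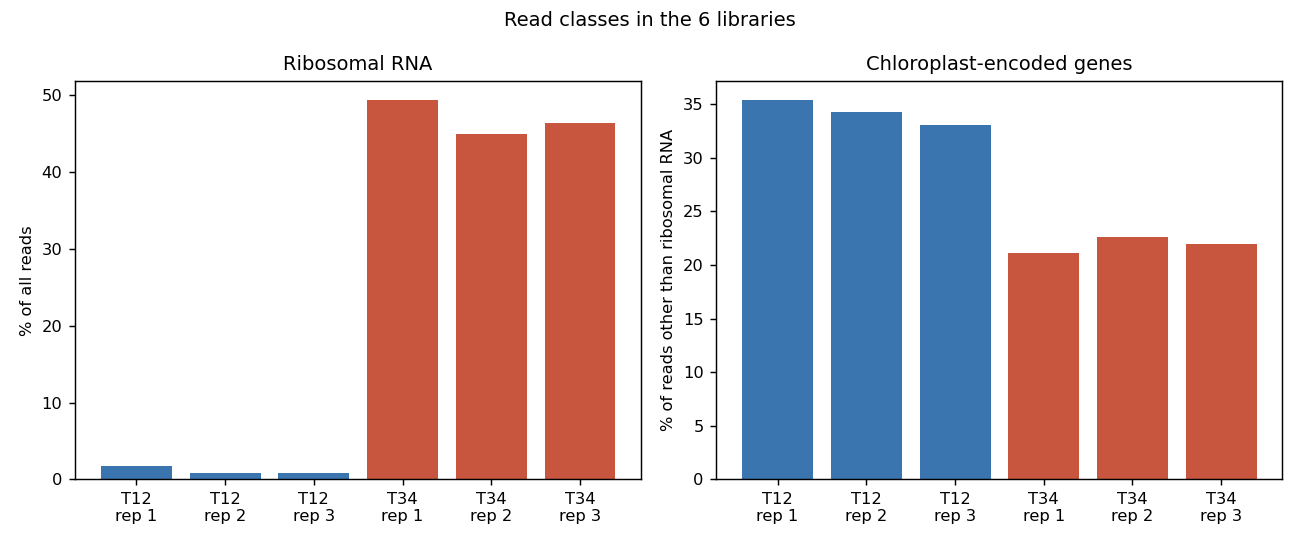
Share of ribosomal RNA among all reads (left, percent) and of chloroplast-encoded genes among the other reads (right, percent), 1 bar per library. Ribosomal RNA is at 44.9 to 49.4% in the T34 libraries and at most 1.70% in the T12 libraries, and the chloroplast share is lower in every T34 library than in every T12 library.

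By limma, at a Benjamini-Hochberg adjusted p under 0.05, 1024 of the 20328 genes (5.04%) rose in T34 and 1177 (5.79%) fell, 10.8% in all. Past 1 on the log2 scale in either direction, 299 (1.47%) rose and 373 (1.83%) fell. Throughout, a log2 fold change refers to log2(normalized count + 1), which understates changes of low genes. In 6752 genes (33.2%) the groups did not overlap, with T34 above T12 in 17.5% and below it in 15.7%. The median over all tested genes was 0.008. Photosynthesis genes of the nucleus and of the chloroplast fell, shoot meristem genes rose, and seed storage genes rose with large folds and a wide spread between T34 libraries. Leaving out T12 replicate 2 or T34 replicate 1, 2 or 3 brought the calls to 886, 968, 696 and 1399, so the count depends on each of these libraries.

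Promoters are shown for 3 of the seed genes that rose and for 1 Rubisco small subunit gene that fell, because the genes of the seed and photosynthesis lists described next moved together. Each line holds the 250 bases before the annotated start of the gene, read 5′ to 3′ from the RefSeq genome of assembly TAIR10.1.
SESA3 promoter, chr4:13611546-13611795, plus strand: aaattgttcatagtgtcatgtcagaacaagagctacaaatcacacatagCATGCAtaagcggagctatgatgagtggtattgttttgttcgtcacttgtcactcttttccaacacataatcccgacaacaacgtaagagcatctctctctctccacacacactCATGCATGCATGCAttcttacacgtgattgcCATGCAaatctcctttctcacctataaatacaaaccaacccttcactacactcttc
CRA1 promoter, chr5:17758337-17758586, minus strand: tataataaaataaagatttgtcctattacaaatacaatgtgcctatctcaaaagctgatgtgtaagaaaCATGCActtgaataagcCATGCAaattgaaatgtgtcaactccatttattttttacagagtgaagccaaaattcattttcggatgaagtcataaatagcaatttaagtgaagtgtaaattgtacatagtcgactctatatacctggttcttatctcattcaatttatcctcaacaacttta
OLEO1 promoter, chr4:12900180-12900429, plus strand: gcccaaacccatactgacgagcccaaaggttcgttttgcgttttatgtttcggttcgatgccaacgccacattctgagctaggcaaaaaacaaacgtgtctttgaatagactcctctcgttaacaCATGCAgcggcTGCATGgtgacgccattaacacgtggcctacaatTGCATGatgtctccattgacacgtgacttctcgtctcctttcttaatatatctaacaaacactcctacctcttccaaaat
RBCS2B promoter, chr5:15382072-15382321, minus strand: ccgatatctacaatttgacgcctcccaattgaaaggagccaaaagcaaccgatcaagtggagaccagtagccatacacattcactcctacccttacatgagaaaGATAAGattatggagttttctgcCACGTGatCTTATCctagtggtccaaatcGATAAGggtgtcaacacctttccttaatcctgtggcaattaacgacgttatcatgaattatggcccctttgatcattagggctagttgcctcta
In the seed promoters capitals mark the RY repeat, CATGCA, the sequence known to be bound by B3 factors of embryo maturation such as ABI3 and FUS3. In the RBCS2B promoter capitals mark the I box, GATAAG, and the G box, CACGTG, both known from light-regulated promoters. Letters were searched on both strands, and overlapping copies were counted one by one, which gives 7 matches for SESA3. None of the motifs searched contains another. The RY repeat was in 13 of the 18 seed promoters (72.2%), against 1543 of 19648 promoters of the same length of tested nuclear protein-coding genes (7.85%). The G box was in 9 of the 18, against 7.73% of all. Of the photosystem subunit genes 8 of 29 (27.6%) held the I box, of the antenna genes 4 of 17, and of the Calvin cycle and photorespiration genes, RBCS2B among them, 3 of 21 (14.3%), against 12.3% of all. A match is a description of letters and not a bound site.

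Photosynthesis genes of the nucleus fell almost as a body. The subunits of the photosystems, the electron carriers and the ATP synthase make up a list of 29 tested genes, of which 28 fell and 0 rose (median log2 fold change -0.92). Of 21 genes of the Calvin cycle, which fixes carbon, and of photorespiration, which salvages the by-product of oxygenation, 18 fell and 0 rose (median -0.996). Of 17 antenna genes, whose proteins hold the light-harvesting chlorophyll, 11 fell and 0 rose (median -0.80), and of 19 genes of chlorophyll synthesis 12 fell and 0 rose (median -0.54). In bulk RNA, fewer cells of a type and less RNA per cell cannot be told apart.

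The strongest of these was CA1, a carbonic anhydrase of the chloroplast that supplies inorganic carbon. Its normalized counts were 7024, 4864 and 5604 in T12 and 1194, 938 and 1343 in T34. The groups are far apart, with the highest T34 library well under the lowest T12 library. CA1 was 5.03-fold lower in T34 (log2 fold change -2.33 ± 0.17, SE, n = 3, adjusted p = 0.00151 by limma). Its close relative CA2 was 4.08-fold lower, with 6991, 6638 and 5807 normalized counts in T12 and 1464, 1578 and 1711 in T34.

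The small subunit of Rubisco, the carbon-fixing enzyme, comes from several near-identical genes, so the split of reads between them is uncertain. RBCS1A had 35190, 30134 and 32026 in T12 and 13183, 15460 and 15514 in T34. RBCS2B had 6187, 4685 and 5979 in T12 and 1813, 1727 and 2051 in T34. Both fell with no overlap between the groups, RBCS2B by more (2.998-fold lower, adjusted p = 0.0016 by limma) than RBCS1A (2.21-fold lower, adjusted p = 0.00202), a difference between the genes that was not itself tested. RCA, the activase that keeps Rubisco working, was 1.99-fold lower.

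Among photosystem I subunits, PSAN, on the lumen side where plastocyanin docks, had 4544, 3536 and 3758 normalized counts in T12 and 1404, 1553 and 1454 in T34. The T34 libraries lie close together and well below T12 (log2 fold change -1.42 ± 0.10, adjusted p = 0.00151 by limma). PSAD2, which helps to dock ferredoxin, fell by 1.33 and PSAE1 by 1.24 on the log2 scale. The gene in this list that did not pass, PSAH1, had a log2 fold change of -0.12.

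Antenna genes were less even. LHCB1.4 had 2674, 2117 and 3089 normalized counts in T12 and 1018, 993 and 1022 in T34, and fell by 1.36 (adjusted p = 0.00246 by limma). LHCB1.3, another member of the same light-harvesting family, had 30733, 38341 and 39830 in T12 and 25586, 32479 and 29501 in T34. Its groups overlap and it was not called (log2 fold change -0.31 ± 0.14, adjusted p = 0.205). Reads of such near-identical LHCB1 genes may be split in uncertain ways.

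In chlorophyll synthesis, CHLI1, a subunit of the magnesium chelatase, had 1775, 1648 and 1635 normalized counts in T12 and 856, 905 and 941 in T34. GUN5, another chelatase subunit, fell by 0.54, and GLK1, a transcription factor that drives chloroplast development, by 0.81 on the log2 scale. All 3 had groups that do not overlap. GS2, which makes glutamine in the chloroplast, and CAT2, which removes peroxide made in photorespiration, fell by 0.81 and 0.88.

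The genes of the chloroplast's own genome were lower as well. Of 124 tested, 117 fell and 0 rose (median -0.91), while of 140 mitochondrial genes 4 rose and 2 fell (median 0.01). Chloroplast genes took 35.4, 34.3 and 33.0% of the reads other than ribosomal RNA in T12 and 21.1, 22.6 and 21.9% in T34. The large subunit gene of Rubisco (ATCG00490) had 1044675, 913811 and 912081 normalized counts in T12 and 404169, 429288 and 411572 in T34. The D1 gene of photosystem II (ATCG00020) was not called, with 1249316, 1246495 and 1195152 in T12 and 732868, 893390 and 779761 in T34. For both, every T34 library lies below every T12 library.

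**Figure D2:**
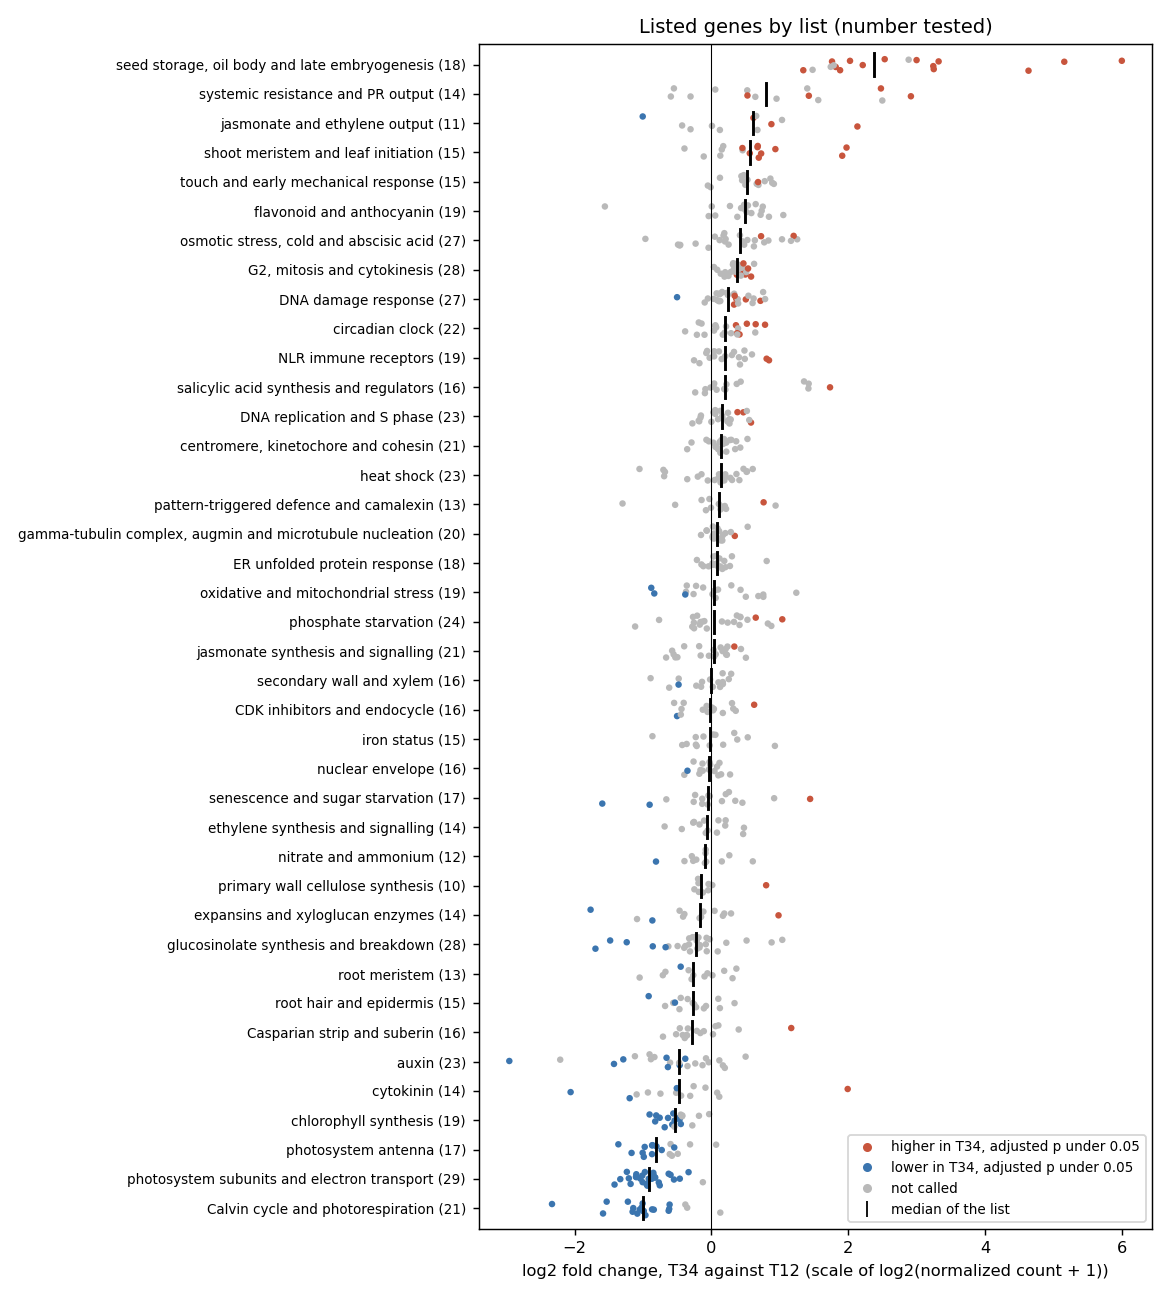
Log2 fold change of each tested gene, T34 against T12, by list, with 1 row per list of at least 10 tested genes, the black mark at the list's median and colour for genes called. The 3 rows at the bottom are the Calvin cycle, photosystem subunit and antenna lists, with medians of -0.996, -0.92 and -0.80, and the seed list at the top has a median of 2.37.

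Genes of seed reserves were higher in T34. Of 18 tested genes for storage proteins, oil body proteins and late embryogenesis proteins, 14 rose and 0 fell (median 2.37), and in 16 every T34 library lay above every T12 library, as in 17.5% of all tested genes. The spread within T34 was wide: replicate 2 was the highest T34 library for 18 of the 18 genes and replicate 1 the lowest for 16.

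SESA3, a 2S albumin store, had 10.3, 5.13 and 20.8 normalized counts in T12 and 75.9, 3608 and 1414 in T34. T34 replicate 1 is thus nearer to T12 than to the other T34 libraries, although the groups do not overlap. The log2 fold change was 5.999 ± 1.32 (adjusted p = 0.034 by limma, SE, n = 3). The 4 albumin genes SESA1 to SESA4 are neighbours of the same family, so their reads may be split in uncertain ways. How alike their sequences are was not measured.

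The cruciferins, 12S globulin stores, showed both a low and a high starting level. CRU2 had 6.28, 11.5 and 12.9 normalized counts in T12 and 53.0, 1564 and 682 in T34. CRA1 had 1083, 2392 and 2669 in T12 and 5576, 12650 and 9772 in T34, 4.63-fold higher on the fitted scale (adjusted p = 0.0189 by limma). T12 seedlings thus also held storage protein RNA, and T12 replicate 1 had the least of it. In WT replicates 1 to 3 the 11 genes used below as seed markers summed to 1481, 5785 and 82.8 normalized counts. In T12 they summed to 2328 to 5862. In WT replicate 2, 95.7% of reads were ribosomal RNA.

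Oleosins coat the oil bodies of the seed. OLEO1 had 257, 396 and 438 normalized counts in T12 and 814, 2333 and 1594 in T34 (log2 fold change 2.03 ± 0.38, adjusted p = 0.0205 by limma). PER1, a peroxiredoxin of dormant seeds, had 322, 481 and 552 in T12 and 889, 1304 and 1207 in T34 and was 2.54-fold higher. The groups do not overlap for either gene. EM6, a late embryogenesis protein, rose by 1.82.

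Of the 4 tested regulators of embryo maturation, ABI5, a factor of abscisic acid signalling, rose from 33.7, 33.99 and 40.4 normalized counts in T12 to 129.7, 119.5 and 74.5 in T34 (log2 fold change 1.52 ± 0.22, adjusted p = 0.00868 by limma). ABI3, a B3 factor that binds the RY repeat shown above, was not called, at 1.13 with adjusted p = 0.0503. FUS3 was at 0.04, and LEC1 and LEC2 were too low to test.

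The seed counts depend on single libraries. Without T34 replicate 2, 0 of the 18 genes were called by limma, and 16 had an unadjusted p under 0.05. Without T34 replicate 3, 3 were called, and without T12 replicate 2, 4 were. The median stayed between 1.95 and 2.73 whichever library was left out. In the whole comparison of 6 libraries, edgeR on recovered reads called 15 of the 18 and DESeq2 16.

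**Figure D3:**
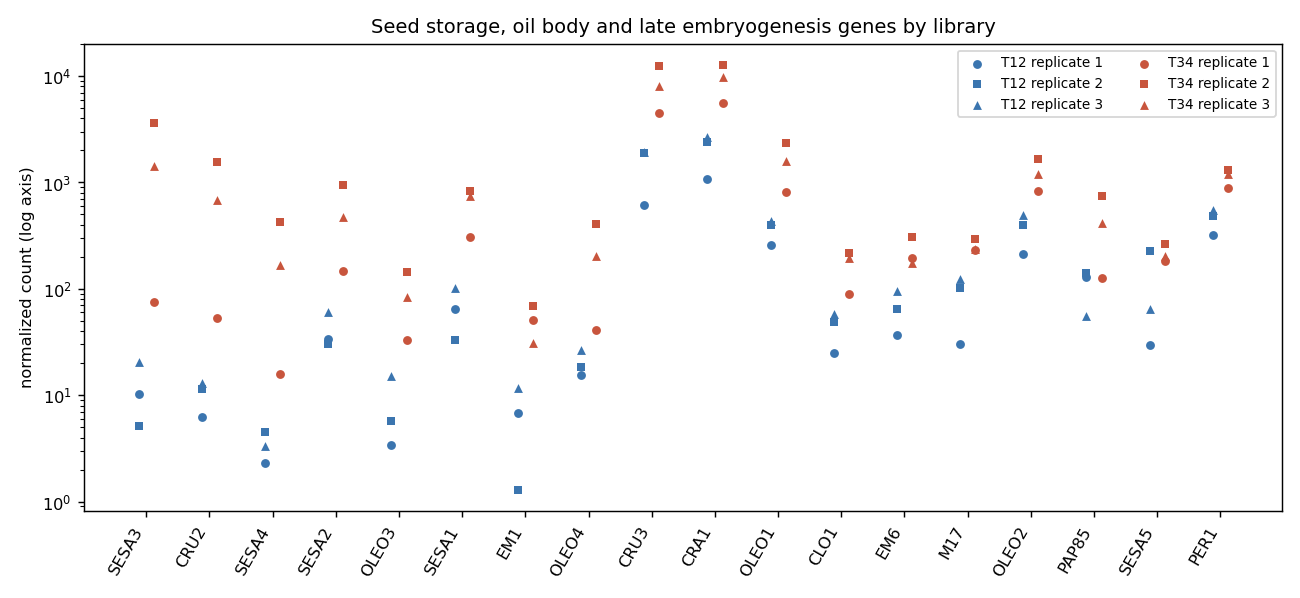
Normalized count (log axis) of the 18 seed storage, oil body and late embryogenesis genes in each of the 6 libraries, with colour for the group and marker shape for the replicate. T34 replicate 2 (red squares) is the highest of the T34 libraries for each gene, and T34 replicate 1 (red circles) lies nearest to T12 for most.

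Of the genes that mark the shoot meristem and the start of leaves, more than the background share were higher in T34. Of 15 tested, 9 rose and 0 fell (median 0.56), and the 9 have groups that do not overlap. STM, a homeobox factor that keeps meristem cells undifferentiated, had 51.9, 60.9 and 44.9 normalized counts in T12 and 200.1, 220.4 and 204 in T34. It was 3.93-fold higher, with little spread (log2 fold change 1.98 ± 0.13, adjusted p = 0.00136 by limma).

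CUC1, which sets organ boundaries, was low in both groups but apart, with 11.98, 8.98 and 7.29 normalized counts in T12 and 36.4, 32.1 and 45.2 in T34 (log2 fold change 1.91 ± 0.24, adjusted p = 0.00505 by limma). The other class I KNOX genes rose less, KNAT1 by 0.56, KNAT2 by 0.94 and KNAT6 by 0.73. ANT, which promotes organ growth, had 196, 179.5 and 188 in T12 and 292, 276 and 339 in T34. AN3, AS1 and PHB, which act in leaf growth and polarity, rose by 0.67, 0.45 and 0.69. The stem cell genes WUS and CLV3, and CUC2, were too low to be tested. The calls of STM, CUC1, KNAT1, ANT and AN3 were kept whichever library was left out.

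Of 28 tested genes of G2 and mitosis, 7 rose by small amounts, 0 fell and 21 were not called (median log2 fold change 0.38, range 0.04 to 0.62). In 21 of the 28 every T34 library lay above every T12 library, against 17.5% of all tested genes. TPX2, a spindle assembly factor, had 197, 228 and 205 normalized counts in T12 and 278, 278 and 316 in T34 (1.38-fold higher, adjusted p = 0.0279 by limma). MYB3R4, an activator of mitotic genes, rose by 0.54, and the B-type cyclin genes CYCB1;1 and CYCB1;2 by 0.50 each. With 1 library left out, 0 to 2 of the 28 were called, and DESeq2 called 3, while the median stayed between 0.32 and 0.44. Of 23 S phase genes 3 rose (MCM3, ICU2 and CYCD3;1), and of 27 DNA damage genes 5 rose, among them the checkpoint kinase genes ATM and ATR by 0.33 and 0.36, and 1 (KRP6) fell. The called share of the S phase list lay near the 10.8% of all tested genes. Those of the DNA damage list and of the G2 and mitosis list lay above it. DESeq2 called 1 of these S phase genes and 2 of these DNA damage genes. The calls of ATM and ATR were lost with DESeq2, that of ATR without any 1 library and that of ATM without any 1 other than T12 replicate 3.

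**Figure D4:**
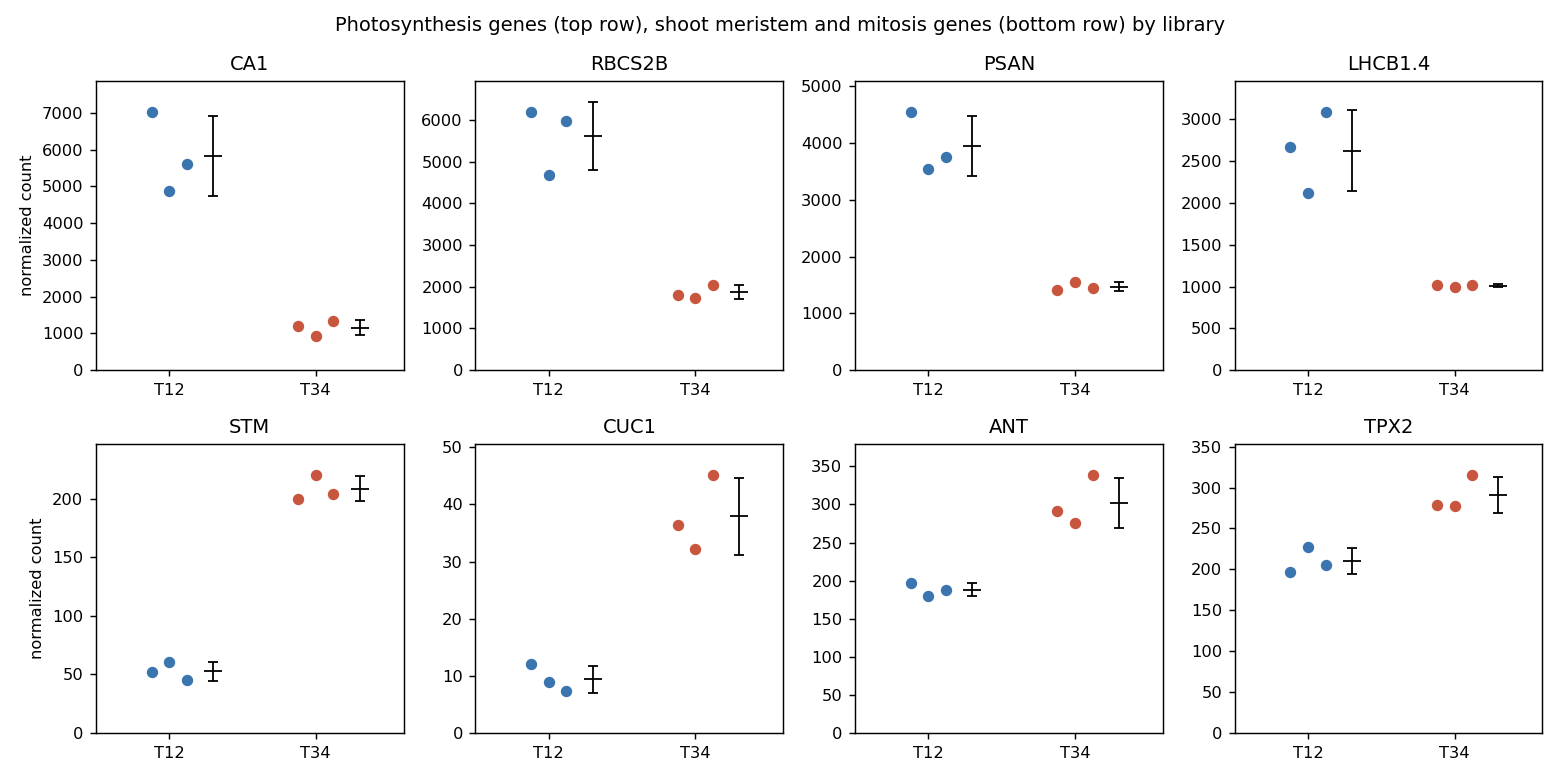
Normalized count of 8 genes, 1 panel each, with 1 point per library and the mean ± SD (n = 3) beside each group. In the top row CA1, RBCS2B, PSAN and LHCB1.4 are lower in every T34 library than in every T12 library, and in the bottom row STM, CUC1, ANT and TPX2 are higher.

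Of 23 tested auxin genes, 7 fell, 0 rose and 16 were not called (median log2 fold change -0.47). The called share was 30.4%, against 10.8% of all tested genes. Among the 7 that fell, the 3 Aux/IAA genes, early targets of auxin that repress its signalling, fell most. IAA19 had 107, 117 and 97.0 normalized counts in T12 and 46.7, 35.9 and 36.0 in T34 (log2 fold change -1.42 ± 0.15, adjusted p = 0.00293 by limma), and IAA1 fell by 1.29. IAA29 was uneven within T12, with 543, 206 and 76.3, against 46.7, 20.17 and 17.58 in T34, and its call (adjusted p = 0.0412) was lost when any library other than T12 replicate 3 was left out. The auxin efflux carrier genes PIN2, PIN3, PIN4 and PIN7 fell by 0.46, 0.66, 0.38 and 0.64. The count was 2 without T12 replicate 2, T34 replicate 1 or T34 replicate 2, and 4 without T34 replicate 3.

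Of 14 cytokinin genes 1 rose and 3 fell (28.6% called, against 10.8% of all tested genes). LOG5, of the family that makes active cytokinin, had 66.8, 40.4 and 53.3 normalized counts in T12 and 326, 212 and 136 in T34 (adjusted p = 0.0125 by limma). CKX5 and CKX3 encode oxidases that degrade cytokinin. CKX5 fell by 2.06, CKX3 fell by 1.195 and the response regulator gene ARR8 by 0.51. Leaving out 1 of 4 libraries ended the calls of CKX5 and of CKX3. For ARR8, 1 of 5 did so, and for LOG5, 1 of 2. CKX5 ranged from 313 to 823 in T12 and from 67.0 to 218 in T34, so the groups come near each other.

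Defence output was higher in part. Of 14 tested genes of systemic resistance and PR output, 4 rose and 0 fell (median 0.80), 28.6% against 10.8% of all tested genes. PR5, a thaumatin-like protein, had 10.8, 30.8 and 32.5 normalized counts in T12 and 143, 227 and 164 in T34 (log2 fold change 2.92 ± 0.41, adjusted p = 0.00748 by limma). WRKY38 and WRKY18 rose by 1.42 and 0.53. PR2, a glucanase, was called with a log2 fold change of 2.48 (adjusted p = 0.0462 by limma), but not by edgeR or DESeq2, nor without any 1 library other than T12 replicate 2, and its log2 fold change ran from 1.58 to 3.21 over the alternatives. The best-known gene of this output, PR1, was not called (adjusted p = 0.149), with 5.71 to 127 in T12 and 177 to 235 in T34. Without T34 replicate 1 or 2 the count was 1, and without T34 replicate 3 it was 2.

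Of 16 genes of salicylic acid synthesis and its regulators, 1 rose (WRKY54, 1.73). Of 11 genes of jasmonate and ethylene output, 3 rose and 1 fell (36.4% called, against 10.8% of all tested genes). THI2.1, a thionin, had 404, 306 and 289.9 normalized counts in T12 and 1563, 1434 and 1361 in T34 and was 4.39-fold higher (adjusted p = 0.00104 by limma). VSP1 and VSP2, which encode vegetative storage proteins, rose by 0.61 and 0.88, and CORI3 fell by 1.004. In jasmonate synthesis and signalling 1 of 21 rose (JAZ5), among immune receptors 2 of 19 (ADR1 and RPP5) and in pattern-triggered defence 1 of 13 (RBOHD). The called shares were 4.76, 10.5 and 7.69%, and 6.25% for the salicylic acid list. They lie near or under the 10.8% of all tested genes.

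Of 22 clock genes 6 rose and 0 fell (median 0.20), 27.3% against 10.8% of all tested genes. These rises were small. GI, which acts in the evening, had 678, 835 and 762 normalized counts in T12 and 1097, 1126 and 1027 in T34. TOC1 rose by 0.38, PRR3 by 0.78 and RVE1 by 0.65. With 1 library left out 0 to 3 were called, and DESeq2 called 2. Of 28 glucosinolate genes 5 fell and 0 rose (17.9% called, against 10.8% of all tested genes). Those that fell include MYB29, a regulator of the aliphatic branch, by 1.70, CYP79F1 by 1.24, and the myrosinase genes TGG1 and TGG2 by 0.86 and 1.48.

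In 3 lists of root genes 6.25% to 13.3% of the genes were called, close to the 10.8% of all tested genes. Of 13 root meristem genes 1 fell (JKD, by 0.45), and of 15 root hair and epidermis genes 2 fell (RHD2 by 0.53 and WER by 0.92). Of 16 genes of the Casparian strip and suberin 1 rose (FAR5, by 1.17). The calls of JKD and WER were lost when any 1 library was left out, and with DESeq2. Every T34 library lay below every T12 library in 5 of the 13 root meristem genes, and above in 1. Among all tested genes this was so in 15.7% and 17.5%. For root hair and epidermis the counts were 2 and 0, and for the Casparian strip and suberin 3 and 1. The 10 root markers summed to 899 to 1315 normalized counts in T12 and 921 to 1058 in T34, and 0 of the 9 tested were called. PHT1;1 alone made up 410 to 648 of the sums in T12 and 468 to 556 in T34, so the sums say little about the others. The 4 leaf markers summed to 94878 to 109252 in T12 and 54776 to 66830 in T34, and 2 of them fell. The 11 seed markers summed to 2328 to 5862 in T12 and 12587 to 36772 in T34, and 11 rose. Of 8 flower and pollen markers 1 was tested and none exceeded 14.1, so the flower signal was near the floor. What part these differences in tissue markers have in the other results was not tested.

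In 3 lists, of microtubule nucleation, of the nuclear envelope and of the endocycle, 1 or 2 genes each were called. Of 20 tested genes of the gamma-tubulin complex, augmin and microtubule nucleation 1 rose (GCP4, from 167, 175 and 183 to 219.8, 229 and 218 normalized counts), of 16 nuclear envelope genes 1 fell (WIP3, by 0.35), and of 16 genes of CDK inhibitors and the endocycle 1 rose (CCS52B, by 0.62) and 1 fell (KRP6, by 0.50). These shares (5.0, 6.25 and 12.5%) lie near or under the 10.8% of all tested genes. The calls of GCP4, WIP3 and KRP6 were each lost when any 1 library was left out, and with DESeq2. That of CCS52B was lost without T12 replicate 2, T34 replicate 1 or T34 replicate 3. Of 21 genes of the centromere, kinetochore and cohesin 0 were called. In 10 of them every T34 library lay above every T12 library, against 17.5% of all tested genes.

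In the other lists 0 to 3 genes each were called. The called share was above the 10.8% of all tested genes for expansins and xyloglucan enzymes (21.4%), senescence (3 of 17) and oxidative stress (15.8%), and below it for the others. In the list of osmotic stress, cold and abscisic acid 2 of 27 rose (HB-12 and HAI2), of 24 phosphate genes 2 rose (PHO2, which limits phosphate uptake, by 1.04, and PHT1;5), and of 12 nitrate and ammonium genes 1 fell. Of 17 senescence genes 1 rose (DYL1) and 2 fell (SEN1 and DIN10), of 19 oxidative stress genes 3 fell, and of 15 touch genes 1 rose. Of 10 primary wall genes 1 rose (CESA9), of 16 secondary wall genes 1 fell (XCP1), and of 14 expansin and xyloglucan genes 1 rose (EXPA4, by 0.98) and 2 fell (XTH17 by 1.77 and EXPA5 by 0.86). By limma 0 were called of 14 ethylene, 15 iron, 23 heat shock, 18 unfolded protein response, 19 flavonoid and 21 centromere genes, where 0, 5, 5, 3, 6 and 4 had an unadjusted p under 0.05. In these 6 lists edgeR called 0 genes, and DESeq2 called 2 iron genes, 1 flavonoid gene and 0 of the others.

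By the rule for named genes, 15 rises and 15 falls stand out. Besides 5 genes of the seed list, the rises include AT4G36700, a vicilin-like storage protein gene, and the receptor-like protein genes RLP24, RLP6 and RLP53, cell surface proteins of a family with roles in defence and development. RLP24 had 22.3, 53.2 and 23.55 normalized counts in T12 and 591, 365 and 162 in T34 (log2 fold change 3.39 ± 0.51, adjusted p = 0.00977 by limma). AT3G27400, a pectate lyase gene, had 159.8, 177 and 145 in T12 and 1407, 1364 and 1050 in T34, 7.85-fold higher with tight replicates (adjusted p = 0.000341). AT5G52390, a PAR1 family protein gene, rose by 3.17.

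AT1G47540, a scorpion toxin-like knottin gene, rose by 3.82, with 6.28, 10.3 and 15.1 normalized counts in T12 and 39.5, 528 and 172 in T34. It shares the order of the T34 libraries with the seed genes. Among the genes the rule could name, which leaves out ribosomal RNA loci (log2 fold changes of up to 8.88), the largest rise was that of AT1G07017, annotated as a long non-coding RNA, from 3.995, 1.92 and 2.24 to 279.9, 233 and 333 (log2 fold change 6.28 ± 0.25). AT4G05185, another non-coding gene, rose by 3.23. In WT these genes were highest in replicate 2, with 11267 and 4558 normalized counts, a library in which 95.7% of reads were ribosomal RNA. Their levels thus move with the ribosomal RNA share, and its part in these rises was not tested.

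Among the falls, PIL1, a factor of the shade response, had 1331, 1483 and 675 normalized counts in T12 and 485, 305 and 145 in T34 (log2 fold change -1.98 ± 0.47, adjusted p = 0.0415 by limma). AT5G02760, a protein phosphatase 2C gene, had 1307, 333 and 231 in T12 and 83.0, 47.8 and 107 in T34. Both are uneven within T12, and leaving out 1 of 4 libraries ended either call. AT3G21330 (bHLH87), AT4G22490 (a lipid-transfer family protein gene), MAKR6, ZFP8, AT5G19190 and AT4G13575 fell by 2.4, 2.42, 1.91, 1.82, 1.91 and 2.24. The snoRNA gene AT5G07725 fell by 2.02 and the non-coding gene AT5G09125 by 1.83.

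AT1G59930 had the largest fall among genes with a mean normalized count of at least 100, which the rule required. It had 192, 219 and 185 normalized counts in T12 and 2.37, 2.24 and 5.86 in T34 (log2 fold change -5.56 ± 0.31, adjusted p = 0.000582 by limma). Its neighbour AT1G59920 had 66.2, 66.0 and 64.5 in T12 and 0, 0 and 0.837 in T34, the last being 1 read, and its fitted log2 fold change was -5.76. In WT replicates 1 to 3 AT1G59930 had 2.46, 0 and 2.55 and AT1G59920 had 1.23, 0 and 0, so both were near the floor there as in T34. The genes on either side, AT1G59910 and ARR3, were not called. Any part of parental accession segments in these 2 falls was not tested. AT1G59920, AT1G07017 and AT1G28135 were the 3 tested genes at 5 or less in each library of one group and at 50 or more in each of the other.

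**Figure D5:**
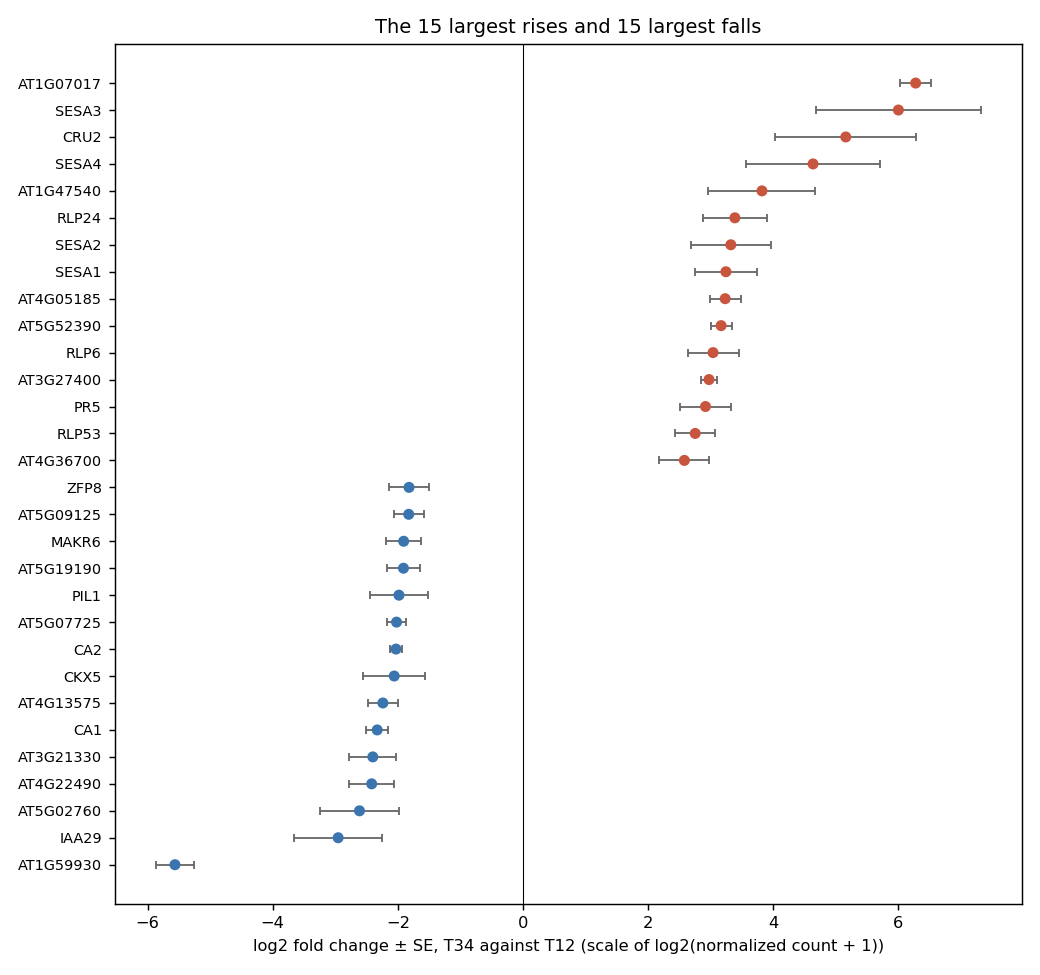
Log2 fold change ± SE (n = 3 libraries per group), T34 against T12, of the 15 largest rises (red) and 15 largest falls (blue) by the rule for named genes. The seed genes SESA3, CRU2 and SESA4 have the largest folds after AT1G07017 and the widest errors, while AT1G59930 lies apart from the other falls at -5.56.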

How the data were processed

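Per the submitters' processing notes, the tools were HISAT2 2.1.0, cutadapt 1.8.1, DESeq2 1.22.2 and featureCounts 1.6.2, on build TAIR10; strand setting and handling of multiply matching reads are not stated there. The authors deposited 2 tables, whose signal columns hold counts divided by a size factor per library; WT columns are identical in both, so they share 1 normalization. At a tolerance of 0.01, 100% of values came out as whole reads. The 6 libraries were joined by locus and fitted with limma-trend (limma 3.58.1, R 4.3.3) on log2(normalized count + 1), and limma's p-values were Benjamini-Hochberg adjusted over 20328 genes. Alternatives were edgeR 4.0.16 and DESeq2 1.42.0 on recovered reads, other scalings, filters, weights and leaving out libraries, and, added after seeing the data, leaving out organelle and ribosomal RNA genes. The fit was tested on simulated data. The 42 lists and the genes compared were chosen with earlier results of these data known. Of 812 listed loci, 6 were not analysed, 8 had another name in the TAIR10.1 annotation, and 741 were tested; lists got counts and medians, no tests. Named genes were GIP2, listed genes, and the 15 largest rises and 15 largest falls among called genes with a mean of at least 100 and no overlap, without organelle, ribosomal RNA and transposable element genes. Ribosomal RNA genes were found by annotation and by sequence match of the rDNA. Depth per library is given with the libraries, and limits of counting error alone were not computed.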

Additional observations from a re-analysis of the deposited data

How the results depend on the processing

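No paired analysis was possible because the labels give the libraries no shared replicate numbers. With 1 library left out, the 2201 calls became 696 to 1993, with 228 to 995 higher and 468 to 998 lower. Those past an absolute log2 fold change of 1 became 127 to 385 higher and 225 to 405 lower. Array weights gave 5256 calls (2684 higher, 2572 lower), and a mean of at least 100 left 142 higher and 177 lower past 1. No call shared with an alternative changed its sign: the count of opposite signs was 0 for each of the 16 alternatives. The alternatives refit the same libraries and only genes called in both fits count, so this 0 says little about stability. Of the calls without T34 replicate 2, 691 of 696 were among the 2201. Leaving out organelle and ribosomal RNA genes gave 1947 calls, and all 1947 were among them.

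With 1 library left out, seed genes higher numbered 0 to 14, antenna genes lower 8 to 14, photosystem subunits 23 to 28, Calvin cycle genes 17 to 19, chlorophyll genes 4 to 12 and chloroplast-encoded genes 103 to 115. Shoot meristem genes higher numbered 5 to 9, G2 and mitosis genes 0 to 2, PR output genes 1 to 3 and clock genes 0 to 3, and lower auxin genes 2 to 9 and glucosinolate genes 3 to 7. Array weights gave 13 G2 and mitosis, 14 auxin and 12 glucosinolate genes, and DESeq2 3 G2 and mitosis and 2 clock genes. The cause of these changes was not tested, and leaving out a library also lowers the number of samples. Chlorophyll genes were 7, 5 and 4 without T12 replicate 2, T34 replicate 1 and T34 replicate 2, shoot meristem genes 5 without T34 replicate 2, and glucosinolate genes 3 without T12 replicate 2. Of 188 called genes of the lists and the named rule, 83 were called without any single library, and 2542 of 2994 values kept their call, 452 lost it and 0 reversed.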

Other observations

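Other gene classes, gathered after their values were seen and so given without a test of the class, moved as follows. Of 34 tested SAUR genes, small auxin-responsive genes of cell growth, 18 fell and 1 rose (median -1.69). SAUR19 had 53.1, 56.4 and 46.5 normalized counts in T12 and 5.54, 9.71 and 10.05 in T34, and its copies in tandem may share reads. Of 16 nuclear genes of the chloroplast NDH complex, which cycles electrons around photosystem I, 14 fell and 0 rose (median -1.02). PnsL1 had 395, 324 and 372 in T12 and 105, 122 and 136 in T34. Of 27 nuclear genes for plastid ribosomal proteins 21 fell and 0 rose (median -0.64), while of 189 for cytosolic ribosomal proteins 6 rose and 6 fell (median 0.02).

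Of 39 receptor-like protein genes 8 rose and 0 fell. RLP43 had 10.3, 12.8 and 20.19 normalized counts in T12 and 72.7, 80.7 and 51.1 in T34. Of 57 WRKY genes, a family of transcription factors with many roles in defence, 8 rose and 0 fell. Of 44 class III peroxidase genes 7 rose and 4 fell. Of all tested genes 5.04% rose and 5.79% fell. Of 16 snRNA genes 10 fell and 0 rose, and of 67 snoRNA genes 12 fell and 0 rose. The ribosomal RNA share also differed between the groups, and its part in these falls was not tested.

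Falls were more frequent among short genes: among 4918 genes with gene models of 42 to 1756 bases 250 rose and 366 fell, and among 4908 with models of 3368 bases or more 272 rose and 160 fell. Beside the WT mean, which includes the library with few usable reads, 591 of the 1024 higher genes had WT below both populations, 269 between them and 164 above both. Of the 1177 lower genes, 595 had WT above both, 320 between and 262 below.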
